A study of Mus musculus with 13 samples.

Results

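The cells described here are lung endothelial cells that carry transcripts of Vwf, the gene for von Willebrand factor, and they are called Vwf cells below. They were chosen by their unique molecular identifiers (UMIs, each marking 1 captured transcript): at least 2 UMIs of Cdh5, the endothelial adhesion protein VE-cadherin, at least 2 of Vwf, none summed over 5 genes of other cells (Ednrb of alveolar aerocytes, Prox1 and Mmrn1 of lymphatic endothelium, Col1a1 of fibroblasts, Ptprc of leukocytes), and at most 10% of UMIs from mitochondrial genes. The rule gave 960 cells of 37344 in the deposited matrix, which were 960 of the 20856 cells of the 4 lung libraries under the mitochondrial limit (4.60%). Vwf lies at chr6:125546774-125686679 on the plus strand and Cdh5 at chr8:104101625-104144511 on the plus strand of mm10, both as protein-coding genes. Because Vwf, Cdh5 and the 5 excluded genes chose the cells, their values are given as a description, and no test stands on them.

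The single-cell samples were whole lungs of C57BL/6 mice, 1 mouse in each of 4 groups, dissociated with proteases: Control, Asthma (ovalbumin), PPE-emphysema (porcine pancreatic elastase into the trachea weekly for 4 weeks) and PPE-recovery. By the paper's supplement, PPE-recovery mice had only 1 instillation of elastase, at day 7, in place of the weekly series. Control mice also had 4 weekly instillations into the trachea, of a content it does not name. No gene deletion or transgene is named for any group, and no age of the mice was found in the labels. The barcodes carry library numbers that the labels do not tie to these groups, so every value is given pooled and for each of libraries 1, 2, 3 and 7, and no group is compared with another. The name lung libraries for these 4 was set with the rule. The labels do not give it, and the 4 libraries are not matched to the 4 groups. Cells with at least 2 Cdh5 UMIs numbered 722, 2222, 988 and 278 in them and 2, 1 and 1 in libraries 4, 5 and 6, which the rule leaves out. Libraries 1, 2, 3 and 7 held 6000, 8747, 5940 and 3657 barcodes, 50552002, 79439569, 47364075 and 34606626 UMIs, and 179, 488, 204 and 89 Vwf cells. The median Vwf cell had 5935.5 UMIs and 2577 genes, and the library medians were 6784, 5876, 5530.5 and 5622 UMIs. Of the lung barcodes, 64 sequences occurred in more than 1 library. None was shared between Vwf cells, and 6 Vwf cells shared theirs with another lung barcode.

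Von Willebrand factor is a large glycoprotein that endothelial cells store in Weibel-Palade bodies and release to tether platelets at a damaged vessel wall. In the lung it is found in arteries and veins and is scarce in the alveolar capillaries, which exchange gas. Arterial endothelium is kept in its state by Notch signalling with Sox17 and makes connexin 40 (Gja5), whereas venous endothelium depends on the nuclear receptor Nr2f2 (COUP-TFII), and in the lung its larger veins carry the noradrenaline transporter Slc6a2, which clears noradrenaline from the blood.

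By their general endothelial genes the 960 cells were endothelium, and by Vwf itself they reached down into cells with a capillary-type profile. Pecam1, the junction protein CD31, stood at 1388 UMIs per 1000000 UMIs of its population (CPM; 95% interval 1360.3 to 1416, exact Poisson, as for all CPM here, and covering counting error only) in Vwf cells and at 1454 CPM in the 979 Vwf-negative cells, which met the same rule with 0 Vwf UMIs. Cldn5, the tight junction protein claudin 5, stood at 2858 and 3349.9 CPM. Sema3c, Gpihbp1 and Kit, genes of the general alveolar capillary, were still abundant in Vwf cells, somewhat below Vwf-negative cells, at 1332 against 1951 CPM for Sema3c, 967 against 1116 for Gpihbp1 and 373 against 512 for Kit. The working name for these cells was large-vessel endothelium. Since most had no UMI of Slc6a2 or Gja5 and kept the capillary genes, they are named here by Vwf alone.

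The Vwf threshold fell within a continuous range. Vwf UMIs per cell ran from 2 to 233 with a median of 6 and quartiles of 3 and 18, and the library medians were 7, 6, 4 and 6. Exactly 2 Vwf UMIs were found in 181 Vwf cells, and 309 cells just outside the rule had 1. Just inside against just outside, Sema3c stood at 1908 and 1962 CPM, Kit at 533 and 596, Gpihbp1 at 1279 and 1104, Gja5 at 11.3 and 8.38 and Slc6a2 at 3.75 and 2.39. The cells on both sides of the line were thus close in these 5 genes, with little of either vessel gene. The limits on other cell types also removed Vwf-bearing cells: of 1460 cells with at least 2 Cdh5 and 2 Vwf UMIs, 500 (34.2%) carried an excluded gene, 259 of them Ptprc, 187 Ednrb, 135 Col1a1, 23 Mmrn1 and 9 Prox1.

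A UMI of Slc6a2 and a UMI of Gja5 marked almost separate sets of Vwf cells. Slc6a2 without Gja5 was found in 222 cells, 23.1% (exact binomial 95% interval 20.5 to 25.9), and by library in 24.0%, 26.0%, 15.7% and 22.5% of libraries 1, 2, 3 and 7. Gja5 without Slc6a2 was found in 119 cells, 12.4% (10.4 to 14.6), and by library in 10.1%, 13.3%, 11.8% and 13.5%. The remaining 618 cells, 64.4% (61.3 to 67.4), had neither, at 65.9%, 60.5%, 72.5% and 64.0% by library. Library 3 had the lowest share with Slc6a2 and the highest with neither, and the Gja5 shares overlapped in their intervals. Only 1 cell, in library 2, carried both genes, where 28.1 would be expected if the genes were detected independently within each library, a ratio of 0.0356 (0.000901 to 0.198). These 3 classes, called Slc6a2 cells, Gja5 cells and cells with neither, were set up after values were seen, and they depend on depth: median UMIs were 7217.5, 6377 and 5436.5, and thinning every cell to 2000 UMIs gave 18.9%, 5.44% and 75.7%, and no cell with both. A cell with neither may therefore hold transcripts of either gene that were not captured. Gja5 lies at chr3:96904693-97077416 on the plus strand and Slc6a2 at chr8:92960079-93001667 on the plus strand of mm10.

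**Figure D1:**
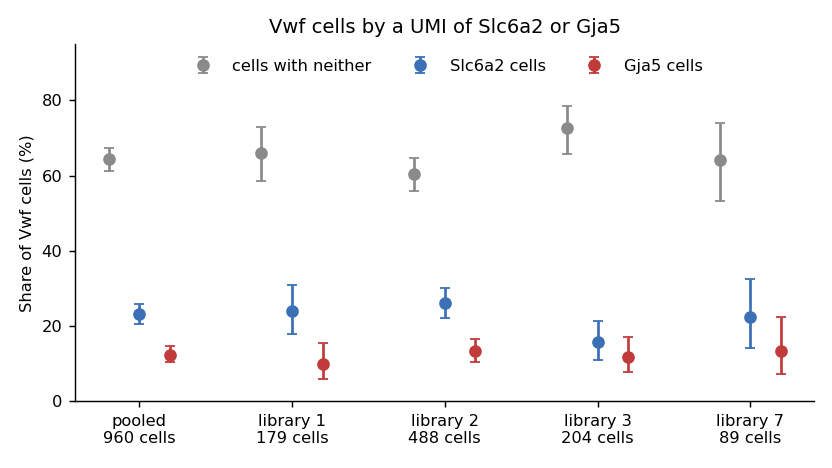
Share of Vwf cells (%, vertical axis) with a UMI of Slc6a2, of Gja5 or of neither, for the pooled libraries and for libraries 1, 2, 3 and 7 (horizontal axis). Points are shares and bars exact binomial 95% intervals. Cells with neither make up 60.5% to 72.5% of every library, Slc6a2 cells 15.7% to 26.0% and Gja5 cells 10.1% to 13.5%.

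Cells with more Vwf had far more Slc6a2, somewhat more Gja5 and less of the capillary genes. Sorted by their Vwf UMIs (2 to 3, 4 to 9, 10 to 29, and 30 or more), Vwf cells had Slc6a2 at 2.46, 20.5, 263 and 1424 CPM. Gja5 stood at 12.8, 28.4, 55.1 and 55.3 CPM in the same order. Vcam1, a leukocyte adhesion molecule, was at 16.7, 8.53, 141 and 527 CPM. For both Slc6a2 and Vcam1 the high levels lay in the upper bins, from 10 Vwf UMIs on. Sema3c was at 1830, 1719, 1160 and 459 CPM, Kit at 506, 530, 335 and 74.7, and Sox17 at 360, 345, 213 and 99.0. Depth moved in the same direction as the vein genes, with median UMIs of 5136, 5322, 6746.5 and 8207.5 in bins of 327, 277, 188 and 168 cells, and its part in the order was not tested. CPM divides by each bin's own total.

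**Figure D2:**
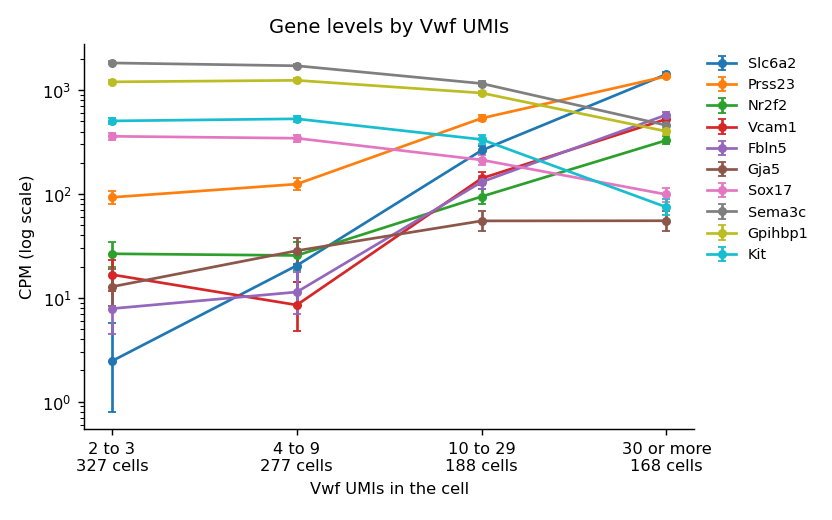
CPM (vertical axis, log scale) of 10 genes in Vwf cells sorted by their number of Vwf UMIs (horizontal axis, 4 bins with the number of cells under each), pooled over the 4 lung libraries. Bars are exact Poisson 95% intervals. Slc6a2 goes from 2.46 to 1424 CPM and Gja5 from 12.8 to 55.3, while Sema3c goes from 1830 to 459 and Kit from 506 to 74.7.

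Most venous-list genes measured were higher in Slc6a2 cells than in cells with neither. Vwf stood at 4788 CPM in Slc6a2 cells, with 4317, 4503, 5681 and 6640.1 CPM in libraries 1, 2, 3 and 7. It was at 2233 CPM in Gja5 cells and 892 CPM in cells with neither. By library Vwf ran from 1905 to 2392 CPM in Gja5 cells and from 816 to 943 CPM in cells with neither. Since Vwf chose the cells, these levels are a description only. A gene was called when its CPM differed at least 2-fold the same way in the pooled cells and in every library with at least 10 cells of each class. There is no test behind a call, since the matrix is 1 sample. By that rule 147 of 7211 genes of at least 20 CPM (2.04%) were higher in Slc6a2 cells than in cells with neither and 110 (1.53%) were lower. Of the 15 venous-list genes measured, 13 were called higher and none lower, with a median log2 ratio of 3.43, and of 18 arterial-list genes 1 was called higher and 9 lower, with a median of -1.67. Slc6a2, which sorted the cells, was left out of these counts. Selp (204 against 7.22 CPM) and Cpe (462 against 15.4 CPM) reached 20 CPM only in the Slc6a2 cells. Genes like these entered through the class where they were high, so the venous count and median are a description only. The 9 lower arterial genes were Cxcl12, Dll4, Efnb2, Hey1, Jag2, Pcsk5, Sema3g, Sox17 and Unc5b, several of them of the Notch pathway, and of 10 general capillary genes 3 were lower, Kit, Lpl and Sema3c.

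Prss23, a secreted serine protease, was at 1217, 1552, 2144 and 1255 CPM in the Slc6a2 cells of libraries 1, 2, 3 and 7 and at 108, 123, 109.7 and 108 CPM in cells with neither. The library levels of the classes did not overlap, and the pooled ratio was 13.1 (11.9 to 14.5). Nr2f2 was at 403, 271, 406 and 308 CPM in Slc6a2 cells and at 25, 33.9, 51.9 and 32.5 in cells with neither, 9.06 times higher pooled (7.54 to 10.9). Its level too separated the classes in every library, which does not mean that every cell was separated. Cpe, the hormone-processing enzyme carboxypeptidase E, was at 297, 488, 666 and 473 CPM against 0, 12.5, 44.8 and 0. Ackr1, the atypical chemokine receptor of postcapillary venules, was low throughout at 96.9, 42.5, 56.2 and 47.3 CPM in Slc6a2 cells, and it was at 0 in Gja5 cells and in Vwf-negative cells, which at the floor of 3 counts over the class allows up to 3.14 and 0.618 CPM. Thinned to 2000 UMIs, 89.5% of Slc6a2 cells still had a Prss23 UMI and 40% an Nr2f2 UMI. In cells with neither these shares were 18.3% and 5.70%, and in Gja5 cells 13.4% and 4.20%.

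Several arterial genes, among them Cxcl12, Efnb2, Sema3g, Dll4 and Hey2, were higher in the Gja5 cells than in the Slc6a2 cells. Cxcl12, the chemokine that binds Cxcr4, was at 1566, 3711, 1393 and 3998 CPM in Gja5 cells of libraries 1, 2, 3 and 7, at 645, 1489, 831 and 1645 in cells with neither and at 88.3, 261, 82.1 and 308 in Slc6a2 cells. In every library the order was Gja5 cells, cells with neither, Slc6a2 cells, and the libraries themselves differed, with 2 and 7 high in all 3 classes. Efnb2, the arterial ligand ephrin B2, was at 896, 1043, 998 and 832 CPM in Gja5 cells and at 53.9, 42.5, 47.6 and 107 CPM in Slc6a2 cells, a pooled ratio of 19.2 (15.6 to 23.9). Sema3g, an arterial semaphorin, was at 751 against 24.4 CPM, 30.7 times higher (22.8 to 42.2), and the Notch ligand Dll4 at 334 against 14.0 CPM. Cells with neither were at 495 CPM for Efnb2, 458 for Sema3g and 177 for Dll4, also above Slc6a2 cells. None of these genes was called higher in Gja5 cells than in cells with neither. Hey2, a Notch target, was at 37.6 CPM in Gja5 cells and had no UMI in Slc6a2 cells, at least 24.1-fold higher against a floor of 3 UMIs over the class. Between the 2 classes 86 of 7293 genes (1.18%) were called higher in Gja5 cells and 105 (1.44%) in Slc6a2 cells, among them 11 of 19 arterial-list genes higher and 13 of 15 venous-list genes lower.

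Against cells with neither, fewer genes set the Gja5 cells apart: 48 of 7172 (0.669%) were called higher and 22 (0.307%) lower. Of 19 arterial-list genes 5 were higher: Bmx, a kinase of arterial endothelium, Htra1, Fbln5, Pcsk5 and the netrin receptor Unc5b. Bmx was at 105, 122, 177 and 50.5 CPM in Gja5 cells and 6.81, 16.2, 49.6 and 8.12 in cells with neither, 6.09 times higher pooled (4.56 to 8.17). Htra1, a secreted protease, was at 83, 94.1, 193 and 37.8 CPM against 0, 2.09, 8.26 and 2.71, 36.0 times higher pooled (19.8 to 72.0). Both were apart in every library, but in library 7 the levels were at, near or below a floor of 3 counts over the class. Efnb2 and Cxcl12 were 1.997 (1.85 to 2.16) and 2.42 (2.31 to 2.54) times as high pooled and were not called, since their lowest library ratios were 1.61 and 1.68. Sema3c was lower in Gja5 cells than in cells with neither, at 686, 395, 456 and 1009 against 2051, 1647, 1638 and 2369.8 CPM, a ratio of 0.285 (0.260 to 0.312). The 4 libraries held only 18, 65, 24 and 12 Gja5 cells, so single cells weigh on these levels.

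Sox17 did not follow Gja5. It was at 338, 246, 172 and 239.7 CPM in the Gja5 cells, 378, 366, 304 and 281 in cells with neither and 366, 416, 399.5 and 413 in Vwf-negative cells of libraries 1, 2, 3 and 7. It was thus no higher in the Gja5 cells than in the other cells without Slc6a2, and in Slc6a2 cells it was lowest, at 108, 80.3, 104 and 112 CPM. A UMI of Gja5 and a UMI of Sox17 met in 87 Vwf cells where 80.5 were expected from independent detection, a ratio of 1.08 (0.866 to 1.33), and 0.879 (0.512 to 1.41) in thinned cells. Slc6a2 and Nr2f2 met in 165 cells where 59.4 were expected, a ratio of 2.78 (2.37 to 3.23), and 3.23 (2.55 to 4.04) in thinned cells. Sox17 was found in 645 Vwf cells and Nr2f2 in 252, so the artery ratio had less room to rise, and the sizes of the ratios cannot be compared. In these libraries the vein pair thus marked the same cells more often than independent detection gives, and the artery pair did not differ from it beyond counting error. Sox17 lies at chr1:4490931-4497354 and Nr2f2 at chr7:70351944-70366735, both on the minus strand of mm10.

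Cells with neither gene differed from Vwf-negative cells in few genes beyond Vwf. Sema3c stood at 1800.3 against 1951 CPM, Kit at 516 against 512, Gpihbp1 at 1173 against 1116 and Efnb2 at 495 against 425. Of 7043 genes, 2 (0.0284%) were called higher in cells with neither and 0 lower (0%). They were named after their values were seen. Adgrg6, an adhesion receptor of the G protein-coupled family, was at 17.0, 37.6, 33.0 and 40.6 CPM against 8.12, 14.3, 7.58 and 0, and Plac8 was at 91.9, 127, 60.2 and 170.4 CPM against 35.2, 55.9, 23.8 and 74.5. Both genes were higher still in Gja5 and Slc6a2 cells, at 300.0 and 251 CPM for Adgrg6 and 378 and 482 CPM for Plac8. The 618 cells held 4015897 UMIs and the 979 Vwf-negative cells 4855974. Prss23 was at 116 against 83.0 CPM and Nr2f2 at 35.6 against 19.2, so both vein genes were higher pooled without reaching the 2-fold limit.

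**Figure D3:**
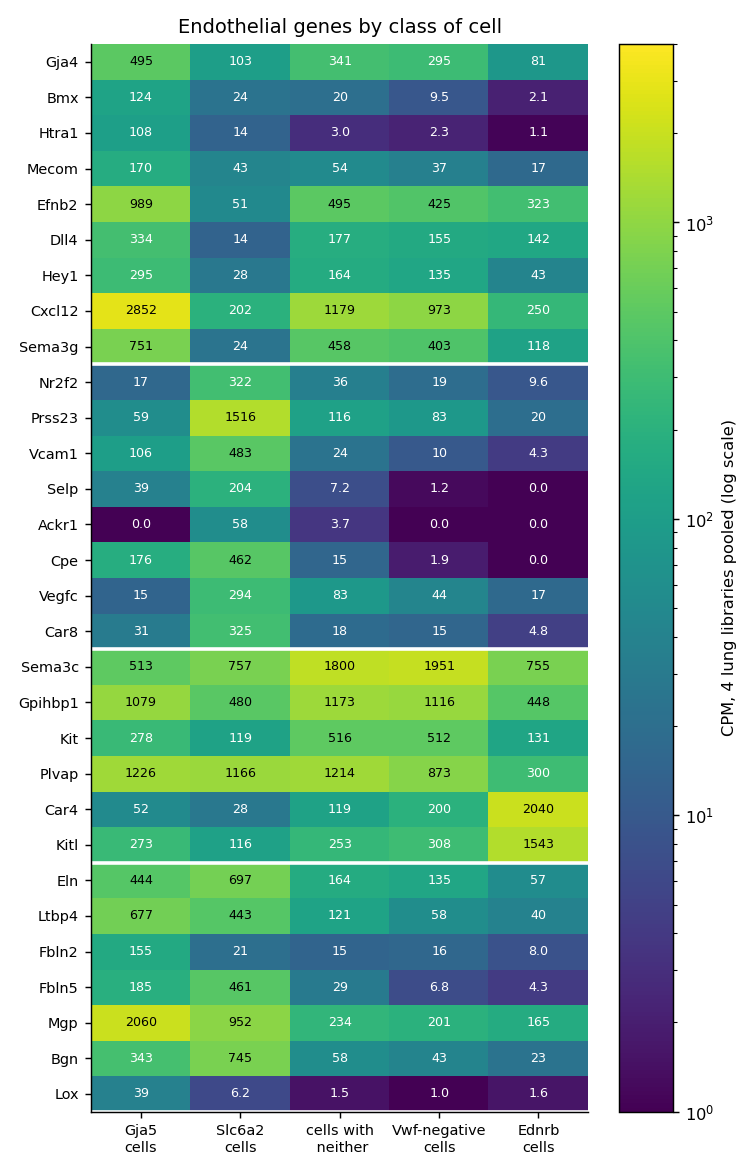
CPM (colour, log scale, with the value printed in each field) of arterial-list, venous-list, capillary-list and vessel-wall genes (rows) in Gja5 cells, Slc6a2 cells, cells with neither, Vwf-negative cells and Ednrb cells (columns), 4 lung libraries pooled. The columns for cells with neither and for Vwf-negative cells are close, with Sema3c at 1800.3 and 1951 CPM, and Slc6a2 cells stand apart in the venous rows, with Prss23 at 1516 CPM. Levels are to be read across a row.

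By the wider marking (a UMI of Gja5 or Sox17 as arterial, a UMI of Slc6a2 or Nr2f2 as venous) 515 Vwf cells (53.6%) were arterial-marked, 147 (15.3%) venous-marked, 163 (17.0%) marked both ways and 135 (14.1%) unmarked. The cells marked both ways were 0.741 times (0.632 to 0.864) the number expected from independent detection, and 0.430 times in thinned cells. They were also the deepest, with a median of 8318 UMIs against 3867 in unmarked cells, and the part of depth in this was not tested. Sox17 was found in 645 Vwf cells and Gja5 in 120, so the arterial-marked set was mostly marked by Sox17, which was at 263 CPM in Vwf cells and at 401 in Vwf-negative cells.

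Of 4059 genes of at least 50 CPM, 127 (3.13%) were called higher in arterial-marked than in venous-marked cells and 105 (2.59%) lower, over libraries 1, 2 and 3. Library 7 had 9 venous-marked cells, fewer than the 10 required. Leaving out the 4 marking genes, 8 of 14 arterial-list genes were higher and 1 lower, with a median log2 ratio of 2.23 (0.08 over all genes tested), and 13 of 14 venous-list genes were lower and none higher, with a median of -3.72. Capillary genes were higher in arterial-marked cells too: 5 of 10 general capillary genes (Gpihbp1, Kit, Lpl, Sema3c and Tmem100; median 1.13) and 2 of 4 aerocyte genes (Car4 and Prx; median 1.42), with Car4 at a ratio of 19.4 (8.83 to 53.2). The venous-list exception was Ephb4, the receptor of ephrin B2. Of the arterial list Sema3g (83.4 times higher, 40.4 to 208) and Dll4 (14.3, 8.75 to 25.1) had the largest ratios, ahead of Efnb2 (10.4, 8.08 to 13.5) and Cxcl12 (10.4, 8.94 to 12.2), and Plat, the tissue plasminogen activator, was 18.1 times higher (9.11 to 42.1). Of the arterial list Fbln5 went the other way, at a ratio of 0.116 (0.0983 to 0.136), and Mgp was lower pooled at 0.530 (0.494 to 0.568) without being called. On the venous side Ptgs2, the inducible cyclooxygenase, stood at 0.00585 (0.00188 to 0.0138), the alarmin Il33 at 0.0154 (0.00309 to 0.0474), and Ackr1 had no UMI in arterial-marked cells, at least 91.6-fold lower. Of 14 dissociation-stress genes 2, the immediate early genes Fos and Fosb, were also called lower in arterial-marked cells, beside 2.59% of all genes, with a median log2 ratio over the list of -0.79, and their part in these differences was not tested.

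**Figure D4:**
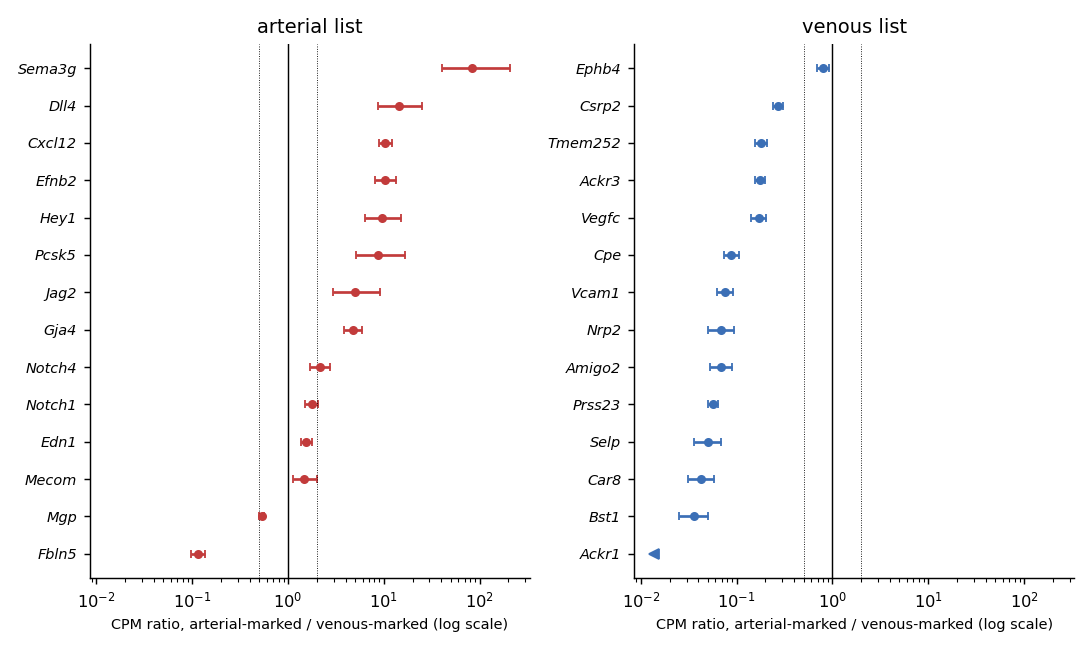
Ratio of CPM in arterial-marked to venous-marked Vwf cells (horizontal axis, log scale) for the arterial-list genes (left) and venous-list genes (right) other than Gja5, Sox17, Slc6a2 and Nr2f2, 4 lung libraries pooled. Bars are exact 95% intervals, a triangle marks the upper bound of a gene with 0 UMIs in arterial-marked cells, and lines stand at a ratio of 1 (solid) and at 2-fold either way (dotted). Sema3g lies at 83.4 and Fbln5 at 0.116, on the side of the venous list.

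Some genes of the vessel-wall matrix, Ltbp4, Fbln5 and Bgn among them, were higher in both Gja5 and Slc6a2 cells than in cells with neither. Elastic fibres let vessels recoil, and endothelial cells contribute elastin and the proteins that assemble it. Of 25 matrix genes 5 were called higher and 2 lower in Slc6a2 cells, and of 27 matrix genes 7 were called higher and none lower in Gja5 cells, beside 2.04% and 1.53% of all genes tested in the first comparison and 0.669% and 0.307% in the second. The 7 were Bgn, Col18a1, Fbln2, Fbln5, Fbn1, Lox and Ltbp4. The 5 in Slc6a2 cells were Bgn, Col18a1, Eln, Fbln5 and Ltbp4, and the 2 lower genes were Col4a2, a basement membrane collagen, and Sparcl1. Ltbp4, which anchors latent TGF-beta and guides elastin assembly, was at 443, 753, 821 and 378 CPM in Gja5 cells, 295, 515, 402 and 456 in Slc6a2 cells and 43.1, 138, 159 and 133 in cells with neither. Both classes were above cells with neither in every library and did not keep an order between themselves.

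The elastin-binding fibulins Fbln5 and Fbln2 differed between the classes in opposite directions pooled, and neither difference was called. Fbln5, which binds elastin to its scaffold, was at 261, 525, 268 and 876 CPM in Slc6a2 cells, 205, 158, 253 and 139 in Gja5 cells and 9.08, 45.4, 17.7 and 18.9 in cells with neither. It was placed in the arterial list but was higher in Slc6a2 than in Gja5 cells in all 4 libraries, by 2.49 times pooled (2.12 to 2.95), and it was not called because libraries 1 and 3 were under 2-fold, with nearly equal levels in library 3. Fbln2 was at 94.1, 136, 279 and 101 CPM in Gja5 cells and at 8.62, 20.8, 13 and 65.1 in Slc6a2 cells, 7.44 times higher pooled (5.21 to 10.8), and this difference was not called because library 7 was under 2-fold. Lox, which cross-links elastin, was at 38.7 CPM in Gja5 cells against 6.24 and 1.49 in Slc6a2 cells and cells with neither. Eln itself was at 227, 477, 512 and 568 CPM in Gja5 cells and at 345, 646, 303 and 2521 in Slc6a2 cells, where library 7 with 20 such cells stood far above the others. There 1 cell held 220 of 426 Eln UMIs, and without it the level was 1357 CPM. Fibroblast genes also stood out in the Slc6a2 cells of library 7, at 254 CPM against 49.5, 102 and 21.6 in libraries 1, 2 and 3. Col3a1 was at 225 CPM there, all of it from the same cell that held the 220 Eln UMIs, and Col1a1 was at 0 by the rule. The part of fibroblast transcripts in the Eln level was not tested. Eln was called higher in Slc6a2 cells than in cells with neither, 4.25 times pooled (3.87 to 4.67).

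Mgp and Bgn depended on the library. Mgp, the matrix Gla protein that inhibits calcification, was at 1378, 1564, 4738 and 75.7 CPM in Gja5 cells, and at 252, 1203, 808 and 1503 in Slc6a2 cells. Its ratio between the classes ran from 0.0503 in library 7 to 5.86 in library 3, so no order between artery-type and vein-type cells was kept. Bgn, the proteoglycan biglycan, was at 474, 891, 661 and 686 CPM in Slc6a2 cells and at 271, 220.3, 841 and 37.8 in Gja5 cells. It was above the level in cells with neither (26.1, 69.4, 87.3 and 8.12) in every library for both. In library 7, however, Gja5 cells and cells with neither were each at the floor of 3 counts, so their order there is not secure. Library 3 was the highest for Mgp, Bgn, Fbln2 and Lox in Gja5 cells, and without it their pooled levels there were 1364, 213, 122 and 25 CPM in place of 2060.3, 343, 155 and 38.7. The same 24 cells also had the most smooth muscle and pericyte transcripts, as given below with the other markers, and the part of these was not tested.

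**Figure D5:**
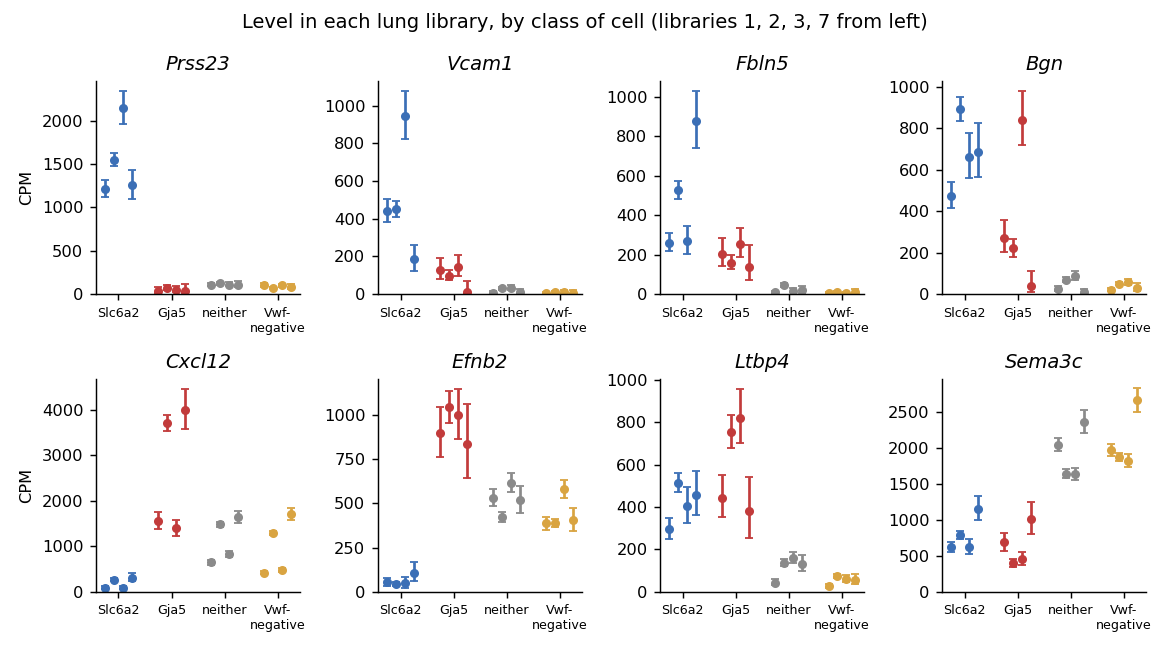
CPM (vertical axis, from 0, own scale in each panel) of 8 genes in Slc6a2 cells, Gja5 cells, cells with neither and Vwf-negative cells (horizontal axis), 1 point per lung library in the order 1, 2, 3, 7, with exact Poisson 95% intervals. Prss23 and Fbln5 are highest in the Slc6a2 cells of every library, Cxcl12 and Efnb2 in the Gja5 cells, and Sema3c in the cells with neither and the Vwf-negative cells.

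Of 14 vascular-tone genes, 3 were called higher in Slc6a2 cells than in cells with neither, Ptgis, Ptgs1 and Ptgs2, and 1 lower, Ace, beside 2.04% and 1.53% of all genes. The 3 higher genes make prostanoids. Prostaglandin synthesis starts with release of arachidonate by phospholipase A2, goes through the cyclooxygenases and ends, for the vasodilator prostacyclin, with Ptgis. Ptgs2 was at 123, 205, 449.6 and 65.1 CPM in Slc6a2 cells and at 0, 8.35, 2.36 and 5.41 in cells with neither, 40.6 times higher pooled (25.9 to 67.2). The constitutive cyclooxygenase Ptgs1 was at 345, 240.0, 319.9 and 456 CPM against 81.7, 63.6, 133 and 35.2, and at 11.1, 6.01, 50.7 and 12.6 in Gja5 cells. Ptgis was 7.68 times higher (6.11 to 9.73) in Slc6a2 cells than in cells with neither, and Pla2g4a, which is outside the tone list, stood at 103 against 6.47 CPM. These 4 genes were set side by side after their values were seen, and each was higher in the Slc6a2 cells than in cells with neither in each library. Ptgs2 is also an early-response gene, and the 14 dissociation-stress genes, which do not include it, summed to 3130.0, 8013, 9667 and 5048 CPM in Slc6a2 cells, 2923, 5997, 6292 and 3011 in cells with neither and 2246, 3415, 5741 and 1905 in Gja5 cells. None of the 14 was called in Slc6a2 or Gja5 cells against cells with neither, and 2, Fos and Socs3, were lower in Gja5 than in Slc6a2 cells, beside 1.44% of all genes. Their part in the class differences was not tested.

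Between Gja5 and Slc6a2 cells 2 of 15 vascular-tone genes were called higher, Ace and Bdkrb2, and 3 lower, Ptgis, Ptgs1 and Ptgs2, beside 1.18% and 1.44% of all genes. Ace, which makes angiotensin II, was at 1721, 1895, 1434 and 2901 CPM in Gja5 cells and at 386, 553, 476 and 734 in Slc6a2 cells, 3.57 times higher pooled (3.30 to 3.86). Bdkrb2, a bradykinin receptor, was at 30.3 CPM in Gja5 cells and had no UMI in Slc6a2 cells, at least 19.4-fold higher. Edn1, the constrictor endothelin 1, was at 304, 611, 395 and 1059.5 CPM in Gja5 cells against 71.1, 209.8, 307 and 308 in Slc6a2 cells, closest in library 3. Nos3, which makes nitric oxide, was at 79.4 and 94.1 CPM in the 2 classes, with Gja5 to Slc6a2 ratios from 0.439 to 1.02 by library, so no difference was called.

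Among genes of clotting and of Weibel-Palade bodies, Selp, Cd63 and Ptgis were higher and Plat lower in Slc6a2 cells than in cells with neither. Of 15 such genes tested, 3 were called higher and 1 lower, beside 2.04% and 1.53% of all genes. Between arterial-marked and venous-marked cells 1 of 11 was higher (Plat) and 5 were lower (Cd63, Procr, Ptgis, Rab27a and Selp), beside 3.13% and 2.59%. Selp, the P-selectin that is stored with von Willebrand factor and captures leukocytes, was at 155, 202, 428 and 47.3 CPM in Slc6a2 cells, at 49.8, 26.0, 76.0 and 0 in Gja5 cells and at 1.13, 7.82, 14.2 and 2.71 in cells with neither, 28.3 times higher in Slc6a2 cells than in the latter (19.4 to 42.8). Plat was the gene called lower, at 7.80 CPM in Slc6a2 cells against 72.0 in cells with neither and 321 in Gja5 cells. Thbd, the anticoagulant receptor thrombomodulin, was at 1306, 862 and 1393 CPM in Slc6a2 cells, Gja5 cells and cells with neither. It was lowest in Gja5 cells pooled, by under 2-fold. F8, the clotting factor that von Willebrand factor carries, was scarce even in Slc6a2 cells, at 10.4 CPM (6.35 to 16.1).

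Some adhesion molecules, Vcam1 and Selp among them, were higher in Slc6a2 cells, and the chemokine Cxcl12 was lower. Of 13 adhesion and chemokine genes 5 were called higher and 1 lower in Slc6a2 cells than in cells with neither, beside 2.04% and 1.53% of all genes tested. In Gja5 against Slc6a2 cells 1 was higher and 5 lower, beside 1.18% and 1.44%. The whole list summed to more in Gja5 cells (4530.3 CPM, of which Cxcl12 was 2852) than in Slc6a2 cells (2673 CPM). Vcam1 was at 439, 449, 943 and 183 CPM in Slc6a2 cells, 127, 98.1, 142 and 12.6 in Gja5 cells and 7.94, 29.7, 33.0 and 10.8 in cells with neither. Slc6a2 cells were highest in every library, and in library 7 the other 2 classes were within counting error of each other. Il33 was at 157, 46.3, 73.5 and 53.3 CPM in Slc6a2 cells and had 0, 0, 5.07 and 0 in Gja5 cells. In library 1, 1 Slc6a2 cell held 39 of 73 Il33 UMIs and had over 1% of its UMIs from Sftpc and Scgb1a1, and without it the level was 80.7 CPM. Icam1, the integrin ligand, was at 181, 392, 631 and 130.2 CPM in Slc6a2 cells against 110.0, 172, 166 and 179 in cells with neither, so library 7 went the other way. Sele, the E-selectin of inflamed endothelium, was low even in Slc6a2 cells, at 15.1 CPM. Cxcl12 was the gene called in the opposite direction.

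Among transcription factors of endothelium, Foxc1 and Nr2f2 were higher in Slc6a2 cells, and Hey1, Hey2, Mecom and Meis1 were higher in Gja5 than in Slc6a2 cells. Of 22 tested between these classes, 4 were called higher and 2 lower in Gja5 cells, beside 1.18% and 1.44% of all genes. Of 21 tested against cells with neither, 2 were called higher and 2 lower in Slc6a2 cells (Foxc1 and Nr2f2, Hey1 and Sox17), beside 2.04% and 1.53% of all genes. Foxc1, a forkhead factor of vessel development, was at 81.9, 77.5, 129.7 and 112 CPM in Slc6a2 cells and at 0, 2.61, 21.2 and 2.71 in cells with neither. Gata6 was the factor called in Gja5 cells, at 116, 202, 177 and 126 CPM against 35.2, 49.6, 35.4 and 56.8 in cells with neither, 3.96 times higher pooled (3.19 to 4.92), as 1 of 21 factors beside 0.669% of all genes. Mecom, another arterial factor, was at 160.5, 192, 127 and 164 CPM in Gja5 cells and 57.9, 52.2, 34.2 and 94.7 in cells with neither, above 2-fold in libraries 1, 2 and 3 only. Klf2, which responds to flow, was at 2079, 1181 and 1446 CPM in Slc6a2 cells, Gja5 cells and cells with neither, with no call. Of 16 genes of BMP and TGF-beta signalling 3 were called higher in Slc6a2 cells (Bmp4, Ltbp4 and Tgfb2) and 1 in Gja5 cells (Ltbp4), and of all genes tested between Gja5 cells and cells with neither 0.669% were higher and 0.307% lower. The ligand Bmp4 was at 86.2, 268, 246 and 385 CPM in Slc6a2 cells and 205, 250.4, 431 and 114 in Gja5 cells against 38.6, 74.1, 63.7 and 165 in cells with neither.

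As 1 population, Vwf cells were higher than Vwf-negative cells in venous-list genes such as Slc6a2, Cpe, Selp and Prss23 and in matrix genes such as Fbln5, Ltbp4 and Bgn. Of 7072 genes 58 (0.82%) were called higher in Vwf cells and 4 (0.0566%) lower. Both counts moved with the Vwf limit, the limit on low genes and the libraries used, as given under the processing. Of 15 venous-list genes 9 were higher, with a median log2 ratio of 2.57, and of 20 arterial-list genes 4 were higher, with a median of 0.09, beside -0.01 over all genes tested. Slc6a2, Cpe and Selp were at 1.03, 1.85 and 1.24 CPM in Vwf-negative cells. They reached 20 CPM only in the Vwf cells, so the venous count and median are a description only. None of 16 pan-endothelial, 10 general capillary, 14 dissociation-stress or 12 interferon and antigen-presentation genes was called. The largest ratios after Slc6a2 (389.8, 167 to 1201) were those of Cytl1, a secreted cytokine-like protein (118), Tmem45a (113), Cpe (87.3), Selp (53.8) and Fgl2 (47.8), and Fbln5 was 25.2 times higher (17.8 to 36.7). All of these rest on 2 to 33 UMIs in the Vwf-negative cells. Cytl1 was high in both vessel classes, at 499 CPM in Slc6a2 cells and 645 in Gja5 cells, and Fgl2 in Slc6a2 cells, at 363 against 2.09 CPM in Gja5 cells. The lower genes were Rgcc (0.289), Pcolce2 (0.360), Car4 (0.420) and Inmt (0.440), of which Car4, carbonic anhydrase 4, is a capillary gene.

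Libraries differed among themselves in Vwf cells, and since they are not tied to a treatment the differences are given by number only. Of 4456 genes of at least 50 CPM in a library, 502 (11.3%) differed at least 2-fold and 74 (1.66%) at least 4-fold between the highest and the lowest library, with a median ratio of 1.44, leaving out cells with over 1% of their UMIs from Sftpc and Scgb1a1. Some of these genes, named after their values were seen, moved in Vwf-negative cells as well. Mki67, a gene of dividing cells, was at 60.7, 3.81, 0 and 0 CPM in Vwf cells of libraries 1, 2, 3 and 7 and at 286, 4.84, 1.13 and 0 in Vwf-negative cells. Ntrk2, a neurotrophin receptor, was at 70.1, 131, 34.6 and 509 CPM in Vwf cells and 102, 277, 59.8 and 633 in Vwf-negative cells. The 10 cell-cycle genes summed to 343, 29.5, 11.8 and 11.3 CPM in Vwf cells, and none of the 7 tested against Vwf-negative cells was called. Library 1 was thus the high one for Mki67 and library 7 for Ntrk2, in both populations. Early-response genes of the dissociation-stress list summed to 2906, 6227, 6819 and 3426 CPM in Vwf cells and to 2775, 5546, 8186 and 3766 in Vwf-negative cells, so libraries 2 and 3 were high in both. The part of treatment, handling or mouse in these differences cannot be told apart.

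Most marker lists of other cells were low in Vwf cells, and the exceptions were secreted epithelial transcripts and the lymphatic-list gene Lyve1. Of 9 leukocyte genes 7 had a UMI, with a sum of 333 CPM led by Lyz2 (263) against 21821 CPM in Ptprc-positive cells, and Ptprc itself was at 0 by the rule. Megakaryocytes and platelets also make von Willebrand factor. The 7 genes of that list summed to 39.4 CPM, led by Pf4 at 21.3, beside 40.4 CPM in Vwf-negative cells. The 10 aerocyte genes summed to 611 CPM, led by Kitl at 217, against 11224 CPM in Ednrb cells. The 8 fibroblast genes summed to 88.6 CPM, the 6 erythroid genes to 27.1 and the 4 mesothelial genes to 0.434. Of 8 lymphatic genes 5 had a UMI, with Lyve1, a hyaluronan receptor, at 714 of 778 CPM, and Prox1 and Mmrn1 at 0 by the rule. By library Lyve1 was at 889.7, 1105, 1133 and 1527 CPM in Slc6a2 cells, 736, 449, 583 and 404 in Gja5 cells and 769, 527, 572 and 389.6 in cells with neither, so it was highest in the Slc6a2 cells of each library, and its pooled level in Vwf-negative cells was 357 CPM. The part of Lyve1 in the Slc6a2 results was not tested. Epithelial genes summed to 13483 CPM in the Slc6a2 cells of library 1 against 814.5, 955 and 142 in libraries 2, 3 and 7, and Lyz2 was at 1103 CPM there against 252, 73.5 and 41.4. Of the 43 cells, 1 held 98.2% of these epithelial UMIs and 94.7% of those of Lyz2, and without it the levels were 273 and 64.1 CPM. Smooth muscle and pericyte genes summed to 94.1, 96.1, 699 and 75.7 CPM in Gja5 cells of libraries 1, 2, 3 and 7, led by Cox4i2 in libraries 1 and 3, Tagln in library 2 and Acta2 in library 7, and pooled to 218 CPM, or 93.5 without library 3, against 73.9 in Slc6a2 cells and 105 in cells with neither. Of the 43 Cox4i2 UMIs in the Gja5 cells of library 3, 1 cell held 31. Epithelial genes summed to 6804 CPM, led by Scgb1a1 at 5090, and 5 cells with over 1% of their UMIs from Sftpc and Scgb1a1 held 89.6% of the UMIs of those genes. Without these cells the calls were 62 higher and 4 lower against Vwf-negative cells, holding all 58 and all 4 of the calls above. Against cells with neither, Gja5 cells kept 48 of 48 higher and 18 of 22 lower calls (without Cbr2, Ces1d, Cldn3 and Wfdc2) and Slc6a2 cells 147 of 147 and 102 of 110. Arterial-marked cells kept 124 of 127 higher and 105 of 105 lower calls against venous-marked cells. As a background for Vwf itself, 17.1% of Ptprc cells (median 8798 UMIs) had a Vwf UMI, and 3.43% did after thinning to 2000 UMIs.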

How the data were processed

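UMI counts per gene and cell were used as deposited. The authors made them with Cell Ranger and STAR on mm10 (per the submitters' processing notes), down-sampled reads as required and aggregated 7 libraries in 1 matrix that precedes their own cell filter. The labels name a 3' kit of version 3 and a supplement version 2, and the 9 samples of other kinds were not analysed here. Other columns of per-sample values left unused numbered 0. The labels do not tie libraries to mice, so the matrix is 1 sample, cells are not replicates, and no p-value was computed.

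Counts were summed over cells and given per 1000000 UMIs (CPM) with exact Poisson 95% intervals. Shares have exact binomial (Clopper-Pearson) intervals, ratios exact conditional binomial ones, and all cover counting error only. Bounds on a gene at 0, and ratios of the highest to the lowest library, used a floor of 3 counts over the class or library. Calls used no floor, so a library could meet the fold limit on very few UMIs. A call needed at least 2-fold, the same way, pooled and in every library with at least 20 cells of each population (10 for classes), among genes of at least 20 CPM in either (50 for the marked cells). List medians used log2(CPM + 1). A gene could enter through the population where it was high alone, so list counts and medians are a description only. The members, the rule and the 22 gene lists were chosen with earlier results of these data known. Genes named are those of the rule, the lists, the 15 largest and smallest ratios against Vwf-negative cells and the 10 largest and smallest between marked cells. Others are marked as chosen after values were seen, except Cbr2, Ces1d, Cldn3 and Wfdc2, which are named only as lost calls.

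Scrublet (in scanpy, expected rate 5%) marked 674 of 20856 cells (3.23%) as doublets, including 1 Vwf cell. In library 7 it marked 6 of 3301 (0.182%), and whether it worked there was not tested. Doublets were kept. On simulated counts for Vwf against Vwf-negative cells (6898 genes), 50 of 50 genes changed 8-fold and 50 of 50 changed 4-fold upward were called, 47 of 50 at ratios of 0.25 and of 0.125, and 0 of 6702 unchanged genes. These were Poisson sums around the same gene means in every library, with no spread between cells or libraries. They therefore do not show how often such spread gives a call, and the comparisons between classes were not simulated. Alternatives were other mitochondrial, Vwf, depth, fold and low-gene limits, thinning to 2000 UMIs, leaving out each library, doublets or cells with epithelial transcripts. Gene positions are from GENCODE on mm10. Tools were Python 3.11.15, NumPy 2.4.6, SciPy 1.17.1, pandas 2.3.3, scanpy 1.11.5 and Matplotlib 3.10.9.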

Additional observations from a re-analysis of the deposited data

Results flagged for a closer look

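Vwf was also detected in libraries 4, 5 and 6, which the rule leaves out. Their 13000 barcodes held 2372 Vwf UMIs, 25.4 CPM, where a count of 3 would be 0.0322 CPM. At least 2 Vwf UMIs were found in 399 cells, of which 264 had a Ptprc UMI and 1 a Cdh5 UMI, and the highest cell had 27.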

How the results depend on the processing

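The number of Vwf cells and their class shares moved with the Vwf limit, the mitochondrial limit and depth. These alternatives were run on cell numbers, shares, co-detection ratios, the counts of calls between Vwf and Vwf-negative cells, the arterial and venous lists between marked cells and the levels of 62 genes in Vwf cells. The calls among Gja5 cells, Slc6a2 cells and cells with neither were repeated only without cells with epithelial transcripts. With a mitochondrial limit of 5% there were 339 Vwf cells, 38.9% of endothelial cells (42.7% by the rule used), Gja5 cells were 15.04% of them and the ratio of observed to expected cells with Gja5 and Slc6a2 was 0. With at least 1 Vwf UMI the share of endothelial cells was 56.5%, venous-marked cells were 12.1%, Slc6a2 cells 17.8%, cells with neither 71.7%, and 0 genes were called lower. With at least 4 Vwf UMIs there were 633 cells (28.2% of endothelial cells), arterial-marked 45.8%, venous-marked 22.3%, Gja5 16.1%, Slc6a2 34.3% and neither 49.4%, with 92 genes called higher and 9 lower. Thinned to 2000 UMIs, arterial-marked cells were 37.7%, venous-marked 19.7%, Gja5 5.44%, Slc6a2 18.9% and neither 75.7%, the ratio for cells marked both ways was 0.430 and that for Gja5 with Slc6a2 0. With no limit on low genes beyond 3 UMIs 149 genes were higher and 26 lower, and at a ratio of at least 3 none was lower (0). The cause of these moves was not tested.

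With each library left out in turn, Vwf cells numbered 472 to 871, 65 to 80 genes were called higher and 4 to 14 lower, venous-marked cells were 11.2% to 16.3%, Slc6a2 cells 20.1% to 25.1%, cells with neither 62.2% to 68.4%, the ratio for cells marked both ways 0.707 to 0.886 and that for Gja5 with Slc6a2 0 to 0.0421. Library 2, with 488 of the 960 cells, gave the lowest number of cells, and without it the ratio for cells marked both ways had an interval of 0.710 to 1.09. Library 1 decided the count of lower genes, 14 without it against 4, and without library 3 it was 7. Fewer libraries have to show the same direction in these counts. Of the 62 genes, those whose level in Vwf cells moved by over 1.5 times were Mki67 (6.17 times without library 1, 1.76 without library 2 and 1.52 with at least 1 Vwf UMI), Ackr1 (1.63 with the mitochondrial limit of 5%) and Il33 (1.64 after thinning). Leaving out Scrublet doublets, cells beyond 2 standard deviations of UMIs or genes, or cells with epithelial transcripts moved no share or count past these limits. No paired analysis was possible because no library is tied to a sample, and with no test to pair, the classes were compared within each library by their values. A cell with no Gja5 or Slc6a2 UMI may hold transcripts of either gene that were not captured, so its class stays uncertain.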
